A study of Rattus norvegicus with 24 samples.

Results

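Primary rat hepatocytes kept between 2 layers of collagen gel (sandwich) were compared with hepatocytes kept on 1 layer (monolayer) at day 3 after the upper layer was added. The comparison took the 3 sandwich and the 3 monolayer arrays of day 3, which are 6 of the 24 arrays of the study, and every probe set on them other than the array maker's controls. The study followed both cultures at days 1, 2, 3 and 8 with 3 arrays per group, and the other 18 arrays entered here only to estimate the spread of each probe set and to place day 3 among the other days. Both groups were isolated hepatocytes, seeded at the same density on type I collagen gel in 6-well plates, in DMEM with fetal bovine serum, antibiotics, epidermal growth factor, insulin, glucagon and hydrocortisone, changed daily. The upper collagen layer, laid on 24 hours after seeding, was the only stated difference between the groups. The labels give no strain, sex or age of the donor rats, and do not say whether the 3 replicates came from separate rats, separate wells or 1 RNA pool, so the p-values measure the spread between these samples, which may be technical.

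Hepatocytes carry out most of the body's urea synthesis, plasma protein secretion, bile formation and drug clearance, and they do so as polarised cells in contact with matrix on more than one face. Plated on a stiff or open surface, they flatten, assemble actin bundles and lose transcripts of these liver functions, a drift known as dedifferentiation. A collagen overlay is a classical way to keep them polygonal, with bile canaliculi between neighbours, and in this study's labels the monolayer stood as the unstable control and the sandwich as the stable one.

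Levels are log2 probe set values, and each difference is sandwich minus monolayer on that scale, ± its standard error (SE) from a limma model. A gene was called when its limma p-value, adjusted by Benjamini-Hochberg over 31042 probe sets, was under 0.05. A gene with several probe sets was read by the one with the highest mean. Where the lower culture mean lay below 5.62, the median of all values, background may make up much of the signal, and no fold is given. Messenger levels come from whole wells, so fewer cells of a kind and less RNA per cell cannot be told apart.

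Of 14217 genes, 3229 were called (22.7%), 1554 higher in sandwich (10.9%) and 1675 lower (11.8%). The median difference over all genes was 0.008, and the median among called genes was 0.505 on the higher side and -0.529 on the lower side. Called differences of at least 2-fold numbered 209 higher (1.47%) and 270 lower (1.9%), and of at least 4-fold 19 and 51, so falls made up most of the largest differences. The counts of called members given for each gene list below stand beside the 10.9% and 11.8% of all genes. In 5263 genes (37%) the 3 arrays of one culture all lay above the 3 of the other, in 2637 with sandwich above (18.5%). Over probe sets, 5133 of 31042 were called (16.5%), 2390 higher (7.7%) and 2743 lower (8.84%). Between arrays of the same culture the correlation over probe sets was 0.993 to 0.996, and between the cultures 0.980 to 0.985, where probe sets are not independent replicates. As a measure of RNA integrity, the gap between the 3' and the 5' control probe set for beta-actin was 0.80, 0.81 and 0.84 in monolayer and 1.16, 0.98 and 0.96 in sandwich. For GAPDH it was 0.40, 0.25 and 0.34 in monolayer and 0.46, 0.31 and 0.35 in sandwich, with overlapping arrays. The part of RNA integrity in the differences that follow was not tested.

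**Figure D1:**
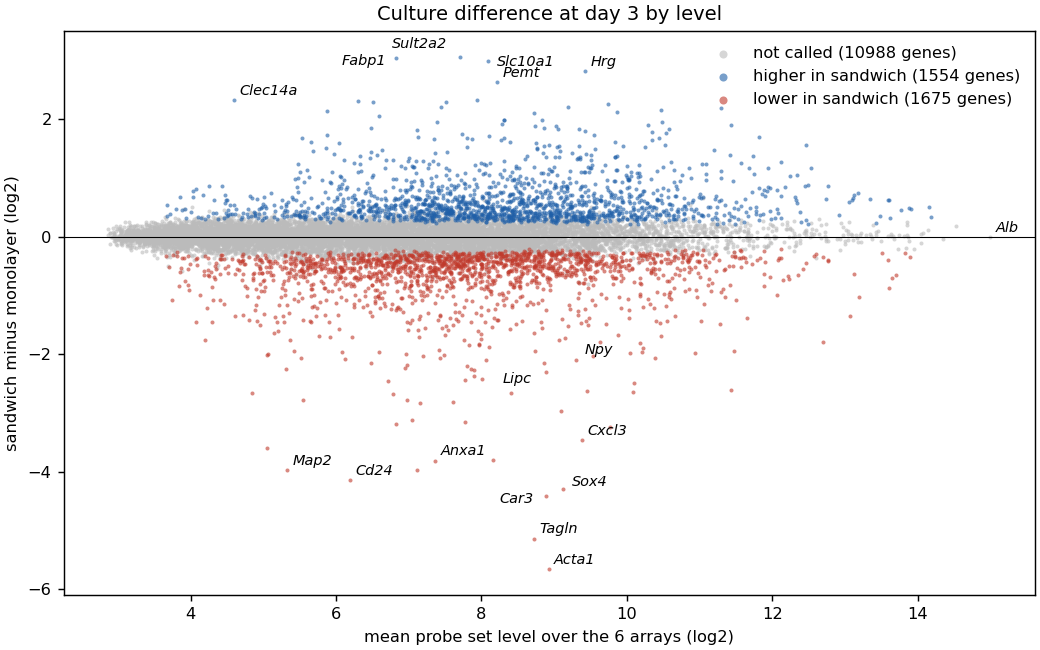
Each point is 1 of 14217 genes at day 3; the horizontal axis is its mean log2 level over the 6 arrays and the vertical axis its log2 difference, sandwich minus monolayer. Blue marks the 1554 genes called higher in sandwich and red the 1675 called lower; the falls reach -5.66 (Acta1), while the largest rise is 3.06 (Sult2a2).

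The 20 largest rises and the 20 largest falls were taken among called genes whose arrays did not overlap. Lack of overlap in these genes therefore follows from the choice. Most of the 20 genes with the largest rises encode enzymes, carriers or secreted proteins. They ran from 1.99 (Tmem86a, 1.03 as the mean over its probe sets) to 3.06 (Sult2a2) and also held Fabp1, Slc10a1, Hrg, Pemt, Ftcd, Rbp7, Apon, Cyp3a23-3a1, Bbox1, Apoa2, Cdo1, Fbp1, Ehhadh, Acss2, Sult2a6 and Slc27a5. Others were Clec14a, a lectin known from endothelial cells, and S1pr1, a receptor for sphingosine 1-phosphate. The 20 largest falls ran from -2.78 (Bhlhe41, a circadian repressor) to -5.66 (Acta1). Of these, Acta1, Tagln, Marcksl1, Msn and Map2 encode proteins of the cytoskeleton, Cav1, Anxa1, Myof and Plscr2 proteins of membranes, and Ccl2 and Cxcl3 chemokines. The others were Car3, Sox4, Cd24, Serpinb9, Filip1l, Ankrd1, Rgs2 and Flrt3.

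Contractile and actin-binding genes stood far lower in sandwich. Acta1, the actin of skeletal muscle, read 11.85, 11.51 and 11.91 on the monolayer arrays and 5.67, 5.36 and 7.25 on the sandwich arrays. The lowest monolayer array lay far above the highest sandwich array, sandwich replicate 3, and the difference was -5.66 ± 0.30. Sandwich replicate 3 held the group's mean above the median of all values, near or below which the other sandwich arrays lay, so no fold is given. Tagln, the actin-binding protein transgelin of smooth muscle, read 11.33, 11.15 and 11.39 in monolayer against 5.92, 5.58 and 6.95 in sandwich. Replicate 3 was again the highest of the sandwich arrays, and replicate 2 lay below the median of all values. The cultures did not overlap, and the level was 35.3-fold lower (adjusted p = 1.00e-13). Background may affect this fold, as for Acta1. Calponin 2 (Cnn2), which binds and stabilises actin filaments, read 11.45, 11.28 and 11.32 against 8.63, 8.99 and 8.92, 5.66-fold lower, and here replicate 1 was the lowest sandwich array. Of 18 measured muscle-type actins and contractile proteins, 12 were lower, 1 was higher and 5 did not pass (median -0.77). The tropomyosin Tpm4 was among those that fell (-0.89 ± 0.08). The member that rose was Mylk, the kinase of myosin light chain (0.40 ± 0.11, adjusted p = 0.0108). Its call ended as the mean over its probe sets (0.23), without monolayer replicate 1 or sandwich replicate 2, and when only the 6 arrays of day 3 were fitted. Acta2, the smooth muscle actin that marks activated stellate cells, read 8.01, 7.81 and 7.55 in monolayer and 7.47, 7.25 and 7.06 in sandwich and did not pass (-0.53 ± 0.26, adjusted p = 0.203), but passed when only the 6 arrays of day 3 were fitted (adjusted p = 0.0226).

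Serum response factor, which binds a sequence called the CArG box, drives many actin genes when unpolymerised actin is scarce. Acta1 and Cnn2 hold a CArG box just before their start, and these stretches are shown because both genes fell with most of this list. The sequences are those of RefSeq on GRCr8, read 5' to 3' along the gene, with the CArG box in capitals: Acta1 from chr19:68784209-68784358 and Cnn2 from chr7:10370313-10370462, both on the minus strand.
Acta1: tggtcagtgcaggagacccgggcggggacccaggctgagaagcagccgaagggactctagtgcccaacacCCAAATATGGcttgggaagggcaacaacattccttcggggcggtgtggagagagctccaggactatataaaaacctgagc
Cnn2: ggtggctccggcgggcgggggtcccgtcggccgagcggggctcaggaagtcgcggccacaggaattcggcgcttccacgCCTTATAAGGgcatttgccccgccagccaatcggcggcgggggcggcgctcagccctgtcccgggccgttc
In Acta1 the box begins 94 bases before the start and in Cnn2 71 bases before it. The 250 bases before the start were searched on both strands in the 11700 genes that have such a sequence. A CArG box was present in 1.24% of all, in 3.29% of the genes called at least 2-fold lower (7 of 213) and in 0 of 167 called at least 2-fold higher. These shares come from motifs chosen after the values were seen, are a description, and say nothing on whether the factor was bound.

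Proteins that cross-link, anchor or turn over actin were lower as a group. Of 28 measured, 23 were lower, 0 higher and 5 did not pass (median -0.84). Filamin A (Flna), which joins filaments into networks, read 10.70, 10.68 and 10.89 in monolayer and 8.24, 8.08 and 8.08 in sandwich, 6.17-fold lower. Moesin (Msn), which ties filaments to the membrane, read 10.62, 10.57 and 10.54 against 7.55, 7.66 and 7.61, 7.84-fold lower (adjusted p = 3.49e-15). Both pairs of groups were wide apart relative to their own spread, which was no more than 0.12 (SD, n = 3). Marcksl1, an actin-bundling substrate of protein kinase C, read 10.19, 10.02 and 9.99 in monolayer, and 6.41, 5.64 and 6.72 in sandwich, where the arrays scattered more (SD 0.55 against 0.11). Alpha-actinin 1 (Actn1), the cross-linker of stress fibres, was 6.24-fold lower. The 3' control probe set of cytoplasmic beta-actin itself read 13.79, 13.75 and 13.80 in monolayer and 12.87, 13.02 and 13.12 in sandwich.

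Microtubule and intermediate filament genes were also lower in part, with medians nearer 0. Among 19 tubulins, septins and microtubule proteins, 11 were lower and 0 higher (median -0.40). Map2, a microtubule-associated protein best known from neurons, read 7.59, 7.08 and 7.29 in monolayer and 3.43, 3.23 and 3.37 in sandwich. All 3 sandwich arrays lay far below the median of all values, and the difference of -3.98 shrank to -2.08 as the mean over its probe sets. Stathmin (Stmn1), which destabilises microtubules, was 5.35-fold lower and the beta-tubulin Tubb5 2.31-fold lower. Of 13 intermediate filament genes and lamins, 8 were lower and 0 higher (median -0.49). Vimentin (Vim), the filament of mesenchymal cells, read 8.92, 8.47 and 8.88 in monolayer and 7.35, 7.0 and 7.09 in sandwich, 3.05-fold lower. The hepatocyte keratins Krt8 and Krt18 fell too, 1.83-fold and 1.57-fold, whereas the bile duct keratin Krt19 read 4.55, 4.53 and 4.49 and 4.50, 4.30 and 4.54, overlapping and below the median of all values in both cultures.

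**Figure D2:**
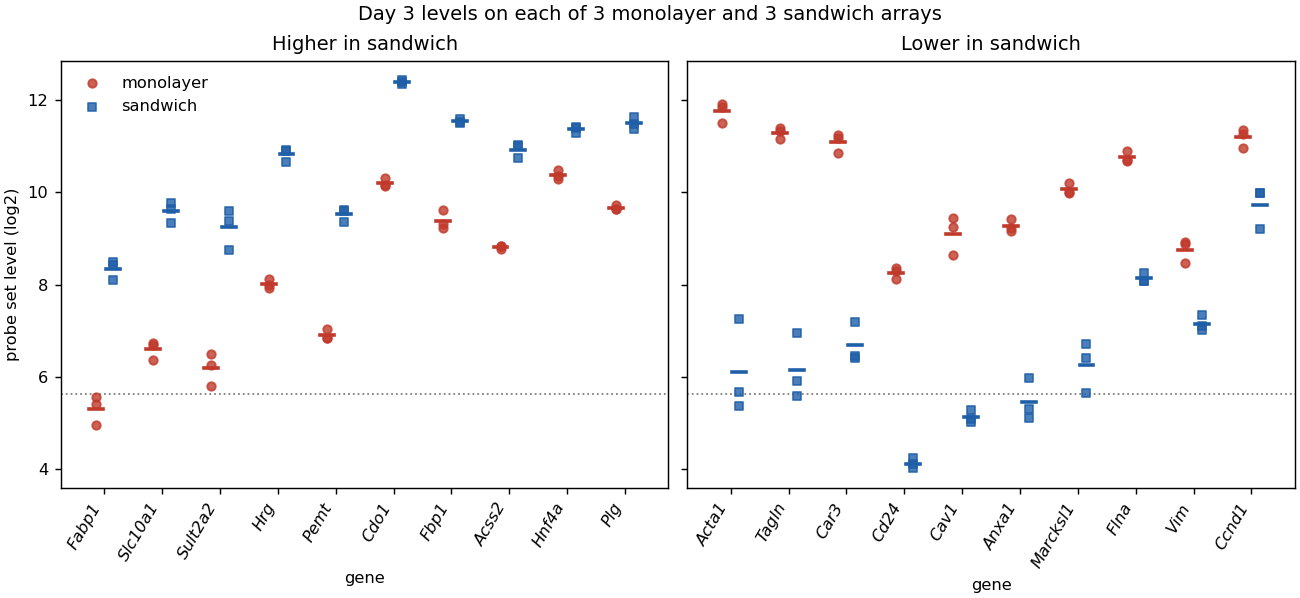
Log2 probe set level on each array of day 3 (red circles, monolayer replicates; blue squares, sandwich replicates; short bars, group means) for 10 genes that rose and 10 that fell; the dotted line is the median of all values, 5.62. The cultures do not overlap in any of the 20 genes shown, most of which were picked from the largest differences without overlap. Of all genes, 37% did not overlap.

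Genes of caveolae, annexins and their partners were also lower in part. Caveolin 1 (Cav1), the coat protein of caveolae, read 9.24, 8.65 and 9.43 in monolayer and 5.01, 5.09 and 5.28 in sandwich, with no overlap (difference -3.98 ± 0.21). Of 8 caveola proteins, 4 were lower and 0 higher (median -0.175). Among the 4, Cav2 lost its call without monolayer replicate 1 or sandwich replicate 3. Annexin A1 (Anxa1), a calcium-dependent phospholipid-binding protein, read 9.22, 9.16 and 9.43 against 5.30, 5.11 and 5.96, and replicate 3 was the highest sandwich array here as for Acta1 and Tagln. The small calcium-binding proteins S100a6 and S100a11 bind annexins. S100a6 was 3.85-fold lower and S100a11 3.49-fold lower, within a list of 20 annexins and S100 proteins of which 10 were lower and 0 higher (median -0.33). Cell junction genes were mixed, with 5 higher and 8 lower of 23. The liver gap junction proteins Gjb2 (1.64 ± 0.11) and Gjb1 (0.49 ± 0.099) rose, as did the claudin Cldn14 (0.77 ± 0.11) and the polarity protein Llgl2 (0.66 ± 0.13). Alpha-catenin Ctnna1, which links adherens junctions to actin, fell (-0.91 ± 0.10), and so did the desmosome protein Dsp (-0.79 ± 0.11, -0.34 as the mean over its probe sets).

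Some adhesion receptors, matrix proteases and protease inhibitors were lower in sandwich. Among 26 integrins and focal adhesion proteins, 12 were lower and 0 higher (median -0.36), with the hyaluronan receptor Cd44 at 8.89, 9.01 and 8.89 in monolayer and 7.29, 7.52 and 7.72 in sandwich, 2.67-fold lower. The integrin-linked kinase Ilk and the tetraspanin Cd151, an integrin partner, were 1.66-fold and 1.93-fold lower. Of 28 proteases and protease inhibitors, 12 were lower, 0 were higher and 16 did not pass. Of the 28, 11 had a mean below the median of all values, many of them metalloproteases. Tissue plasminogen activator (Plat) read 11.29, 11.11 and 11.09 in monolayer and 9.28, 9.28 and 9.25 in sandwich, 3.71-fold lower. The serine protease Prss23 was 4.27-fold lower, and the metalloprotease inhibitor Timp1 2.64-fold lower. Timp2 read 8.09, 8.05 and 8.09 and 5.94, 5.73 and 5.98, a difference of -2.19 that was -1.18 as the mean over its probe sets. Matrix proteins themselves were less uniform, with 8 lower and 2 higher of 30. The laminin chains Lamb3 (-1.36 ± 0.12) and Lamc1 (-1.02 ± 0.11) and the basement membrane collagen Col4a5 (-2.02 ± 0.15) fell. Vitronectin (Vtn), an adhesive protein that the liver secretes into plasma, rose from 10.73 ± 0.051 to 11.85 ± 0.025 (SD, n = 3). The fibrillar collagen Col1a1 read 5.25, 5.59 and 5.48 and 5.59, 5.57 and 5.88, with overlapping arrays (adjusted p = 0.324).

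YAP and its partner TEAD switch on a small set of genes in spread, tensioned cells. Of 19 such targets, 10 were lower, 1 was higher and 8 did not pass (median -0.35). Ccn2, the matricellular growth factor also called CTGF, read 12.81, 12.56 and 12.84 in monolayer and 10.19, 9.92 and 10.26 in sandwich, 6.11-fold lower (adjusted p = 1.61e-12). Ankrd1, a stretch-responsive ankyrin repeat protein, read 8.68, 8.36 and 8.79 against 5.25, 5.20 and 6.02, and Ajuba, a scaffold of the pathway, fell (-0.72 ± 0.081). The member that rose was Nt5e, a surface nucleotidase (0.50 ± 0.13), whose call ended without monolayer replicate 3 or sandwich replicate 1. The stretch before the start of Ccn2 is shown because it holds 3 copies of GGAATG, the TEAD site, in capitals; it is chr1:22624656-22624825 of GRCr8 on the minus strand, from RefSeq.
Ccn2: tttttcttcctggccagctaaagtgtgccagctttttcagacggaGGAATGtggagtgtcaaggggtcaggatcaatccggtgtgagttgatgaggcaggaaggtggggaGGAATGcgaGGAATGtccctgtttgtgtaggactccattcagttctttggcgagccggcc
The copies begin 166, 101 and 92 bases before the start. GGAATG, on either strand, was in the 250 bases before 10.4% of all genes, 16.4% of those at least 2-fold lower and 10.2% of those at least 2-fold higher; the Acta1 stretch above also holds it on the other strand.

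Growth factor signalling genes were mixed. For TGF-beta and BMP signalling, 10 of 29 were lower and 2 higher. Id3, a target of BMP receptors, read 9.56, 9.58 and 9.50 in monolayer and 7.79, 8.01 and 7.90 in sandwich, 3.13-fold lower. The ligand Tgfb3 (-1.11 ± 0.13) and the latent TGF-beta binding protein Ltbp1 (-1.97 ± 0.24) fell, while the liver activin subunits Inhbe (0.79 ± 0.11) and Inhbc (0.51 ± 0.11) rose. The EGF, FGF and MAPK feedback list had 6 higher and 6 lower of 29. Fgf21, a fasting hormone made by the liver, read 7.32, 7.60 and 7.41 in monolayer and 9.12, 9.10 and 9.02 in sandwich, 3.11-fold higher. Receptors of the family rose as well, Fgfr4, the bile acid-regulating receptor of hepatocytes, by 0.63 ± 0.11, and Fgfr2 by 1.66 ± 0.13, which was 0.57 as the mean over its probe sets. Ets1, a transcription factor downstream of MAP kinase, fell (-0.83 ± 0.13). In the growth hormone and insulin list, 7 of 25 were higher and 3 lower. The growth hormone receptor Ghr (0.99 ± 0.16) and the binding protein Igfbp1 (0.86 ± 0.096) rose, and Igfbp7, a secreted relative found in vessel walls, read 8.02, 8.09 and 8.27 against 5.50, 5.30 and 5.53 and fell (-2.69 ± 0.14).

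Chemokines and their regulators moved in both directions. The NF-kappaB list had 6 higher and 7 lower of 31 (median 0.007). Cxcl3, which attracts neutrophils, read 11.02, 11.18 and 11.13 in monolayer and 7.53, 7.45 and 7.96 in sandwich, 11-fold lower, and its difference of -3.46 was -2.0 as the mean over its probe sets. Ccl2, which attracts monocytes, was 7.03-fold lower. In the other direction went Cxcl12, a chemokine made in resting tissue (1.40 ± 0.11; 0.68 as the mean over its probe sets), the inhibitor of interleukin 1 receptors Il1rn (0.94 ± 0.14) and the nuclear NF-kappaB modulator Nfkbiz (1.48 ± 0.13; 0.86 as that mean). Interferon-induced genes had 7 lower and 2 higher of 21, with the GTPase Gbp2 the lowest (-1.44 ± 0.13). Among 22 immediate early transcription factors, 8 were higher and 3 lower. The zinc finger factor Egr1 read 10.72, 10.67 and 10.99 in monolayer and 11.77, 11.63 and 11.96 in sandwich, 1.99-fold higher, whereas the AP-1 subunit Fosl1 was 1.71-fold lower. The count of 8 higher was 5 without sandwich replicate 1.

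Many genes of DNA replication and mitosis were lower in sandwich, and a smaller share of those of cycle entry. Cyclin D1 (Ccnd1), which carries cells out of quiescence, read 11.36, 10.96 and 11.26 in monolayer and 9.20, 9.98 and 9.99 in sandwich. The cultures did not overlap, sandwich replicate 1 lay below the other two, and the level was 2.77-fold lower (adjusted p = 2.06e-07). Its partner Cdk4 was 1.49-fold lower. Of 21 genes of the G1 and S phases, 6 were lower and 0 higher, and 15 did not pass; the 6 became 3 without sandwich replicate 3. For DNA replication, 14 of 28 were lower and 0 higher (median -0.33). Mcm6, a subunit of the replicative helicase, read 6.67, 6.57 and 6.66 against 5.08, 5.06 and 5.41, and the sliding clamp Pcna was 1.53-fold lower. Mitosis genes had 20 lower and 0 higher of 29 (median -0.46), among them the mitotic kinase Cdk1, at 6.92, 7.41 and 7.16 in monolayer and 5.58, 5.59 and 6.28 in sandwich, the ubiquitin-conjugating Ube2c (-1.14 ± 0.10) and the cytokinesis factor Ect2 (-1.77 ± 0.16). Of the 29, 18 had a mean below the median of all values, and without such dim probe sets 9 stayed lower. The proliferation marker Mki67 was dim in both cultures, 4.14, 4.52 and 4.47 and 3.56, 3.51 and 3.56 (-0.83 ± 0.10).

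E2F factors drive replication genes through a short site. The stretch before Mcm6, chr13:42404413-42404562 of GRCr8 on the minus strand, is shown for the 8 letters TTTGGCGC, 139 bases before the start.
Mcm6: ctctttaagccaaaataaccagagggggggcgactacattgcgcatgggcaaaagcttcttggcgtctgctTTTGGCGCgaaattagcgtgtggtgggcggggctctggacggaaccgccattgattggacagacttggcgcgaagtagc
TTTGGCGC or TTTCCCGC, on either strand, was in 2.15% of all such windows, in 3.29% of those of genes at least 2-fold lower (7 of 213) and in 0.599% of those at least 2-fold higher (1 of 167). Growth arrest genes gave no common direction, with 5 higher and 4 lower of 16. The mTOR inhibitors Ddit4 (0.68 ± 0.13) and Sesn1 (0.68 ± 0.13) rose, and Zmat3 (-0.46 ± 0.10) and Mdm2 (-0.37 ± 0.089), targets of p53 as well, fell.

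Transcription factors that define hepatocytes and nuclear receptors of the liver were more often higher than lower in sandwich. Of 38 measured, 17 were higher, 2 lower and 19 did not pass (median 0.25). Hnf4a, the nuclear receptor at the head of the hepatocyte programme, read 10.37, 10.29 and 10.48 in monolayer and 11.40, 11.42 and 11.29 in sandwich. Its arrays lay close together within each culture, and the level was 1.99-fold higher (adjusted p = 4.26e-08). Cebpa, a factor of liver and fat differentiation, read 8.70, 8.12 and 8.01 against 9.71, 9.20 and 9.18, 2.12-fold higher, with replicate 1 the highest array of each culture. The bile acid receptor Nr1h4 (FXR) rose by 0.88 ± 0.11 and the lipogenic factor Srebf1 by 1.05 ± 0.11. Against these, Onecut1, a factor of early liver and bile duct formation, was 2.11-fold lower and Foxa2, a pioneer factor, 1.55-fold lower.

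Markers of fetal liver and progenitor cells did not move together. Of 17 measured, 4 were lower and 2 higher. Sox4, a factor of bile duct and progenitor cells, read 11.22, 11.23 and 11.35 in monolayer and 6.71, 6.86 and 7.32 in sandwich, 19.7-fold lower by this probe set, and -2.07 as the log2 mean over its probe sets. Cd24, a surface glycoprotein of immature cells, read 8.37, 8.12 and 8.29 against 4.23, 4.10 and 4.01. All sandwich arrays lay below the median of all values (difference -4.15 ± 0.21). Prom1, the membrane protein CD133, was 2.39-fold lower. Alpha-fetoprotein (Afp), the albumin of the fetus, went the other way, from 6.77, 6.69 and 6.78 in monolayer to 7.58, 7.68 and 7.35 in sandwich, 1.73-fold higher.

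Secreted plasma proteins rose as a group, although the most abundant did not. Albumin (Alb) read 15.00, 15.02 and 14.99 in monolayer and 14.98, 15.02 and 14.99 in sandwich, at the top of the measured range, where 15.02 was the highest value of any probe set at day 3, and whether its probes were saturated was not tested. Transthyretin (Ttr), the thyroxine carrier, was 1.18-fold higher (adjusted p = 0.0259), a call that ended without any of monolayer replicates 1, 2 and 3 or sandwich replicate 1, and in the 6-array fit. Of 24 plasma carriers, 18 were higher and 0 lower (median 0.58). Histidine-rich glycoprotein (Hrg) read 7.92, 8.12 and 8.00 in monolayer and 10.92, 10.91 and 10.65 in sandwich, 7.03-fold higher (adjusted p = 1.00e-13). The vitamin E carrier Afm was 3.37-fold and the retinol carrier Rbp4 2.60-fold higher. Clotting and fibrinolysis genes were higher in 16 and lower in 1 of 21. Plasminogen (Plg) read 9.63, 9.72 and 9.64 against 11.64, 11.37 and 11.49, 3.57-fold higher. Tissue factor (F3), which sits on cell surfaces and starts clotting, was the member that fell (-1.65 ± 0.15). Complement genes were higher in 14 and lower in 1 of 19, with both chains of C4b-binding protein, C4bpa and C4bpb, 2.79-fold and 3.47-fold higher and the protease C1r 1.35-fold lower. Acute phase proteins were higher in 10 and lower in 1 of 19, such as Crp (1.07 ± 0.13) and haptoglobin Hp (0.47 ± 0.082).

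Apolipoproteins rose and a lipase that acts on lipoproteins fell. Of 22 measured genes of lipoproteins, 15 were higher and 2 lower (median 0.83). Apoa2, a main protein of high-density lipoprotein, read 8.18, 8.08 and 8.00 in monolayer and 10.43, 10.32 and 10.13 in sandwich, 4.62-fold higher. Apoc2, the activator of lipoprotein lipase, was 3.39-fold higher, and Apon rose by 2.30 ± 0.16. Hepatic lipase (Lipc), made by hepatocytes and bound to the liver's sinusoid walls, read 10.02, 9.90 and 10.19 in monolayer and 7.68, 7.85 and 7.66 in sandwich. It was 4.95-fold lower without overlap (adjusted p = 4.69e-12). The receptor for high-density lipoprotein, Scarb1, fell slightly (-0.33 ± 0.10), a call that ended without any of 4 arrays and with the arrays centred on a common median.

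Amino acid breakdown and nitrogen disposal rose together. Of 41 measured genes of amino acid breakdown, 31 were higher, 0 lower and 10 did not pass (median 0.70). Ftcd, which passes the carbon of histidine to folate, read 6.86, 6.76 and 6.72 in monolayer and 9.14, 9.20 and 8.97 in sandwich, 5.0-fold higher. Aspartate aminotransferase Got1 was 3.21-fold, the tryptophan-degrading Haao 2.81-fold and the glyoxylate transaminase Agxt 2.49-fold higher. Tyrosine aminotransferase (Tat), a classical glucocorticoid target, read 11.44, 11.40 and 11.38 against 12.32, 12.10 and 12.30, 1.78-fold higher. For the urea cycle and ammonia handling, 13 of 17 were higher and 0 lower (median 0.64). Cps1, which makes carbamoyl phosphate in mitochondria, read 11.50, 11.44 and 11.54 and 12.47, 12.28 and 12.08, 1.73-fold higher. The enzymes after it rose too, Otc 3.21-fold, Asl 2.27-fold and arginase Arg1 3.24-fold, and so did Car5a, the carbonic anhydrase that supplies bicarbonate to the cycle, 3.52-fold.

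Methionine, sulfur and one-carbon enzymes rose in 17 and fell in 2 of 24 (median 0.81). Pemt, which methylates phosphatidylethanolamine to phosphatidylcholine, read 6.84, 7.04 and 6.84 in monolayer and 9.60, 9.62 and 9.37 in sandwich, 6.16-fold higher. Cysteine dioxygenase (Cdo1), the first step from cysteine to taurine, read 10.16, 10.32 and 10.14 against 12.40, 12.43 and 12.35, 4.55-fold higher (adjusted p = 2.73e-14), and Csad, the next enzyme on that route, was 3.94-fold higher. Gnmt, which uses up surplus S-adenosylmethionine, was 2.73-fold and Bhmt2, which remakes methionine, 2.94-fold higher. Sqor, a mitochondrial enzyme that oxidises sulfide, fell 2.30-fold. Genes of the amino acid response and of serine synthesis were higher in 9 and lower in 0 of 19, including the cystine carrier Slc7a11 (0.92 ± 0.15), the pseudokinase Trib3 (0.94 ± 0.12) and the serine phosphatase Psph (0.72 ± 0.099).

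Genes of glucose output and fructose use rose, and those of a glycolysis list fell or did not pass. Of 17 measured genes of gluconeogenesis, fructose and glycogen, 11 were higher and 0 lower (median 0.86). Fbp1, the fructose bisphosphatase of liver, read 9.24, 9.61 and 9.31 in monolayer and 11.51, 11.52 and 11.60 in sandwich, 4.46-fold higher. The fructose kinase Khk was 2.88-fold, the triokinase Tkfc 2.92-fold (0.87 in log2 as the mean over its probe sets) and the liver pyruvate kinase Pklr 3.95-fold higher. Phosphoenolpyruvate carboxykinase Pck1, a gate of gluconeogenesis, read 9.49, 9.38 and 10.03 in monolayer and 9.83, 9.60 and 9.63 in sandwich and did not pass (adjusted p = 0.906). NADPH suppliers were higher in 6 and lower in 0 of 11, including malic enzyme Me1 (0.61 ± 0.11) and the isocitrate dehydrogenase Idh1 (0.51 ± 0.082). Of 22 genes in a glycolysis list drawn up for forms of other tissues, 7 were lower and 0 higher. This list is not confined to such forms. It includes Tpi1 and Pgk1, and Ldha, which stands as the liver form among the pairs that follow.

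Several liver proteins were set beside a counterpart that is typical of fetal liver or of other tissues. In most pairs this is a sister form of the same enzyme, but keratins, connexins and carriers are among them. Of 20 such pairs drawn up, 15 had both forms measured. The liver form was higher in 11 and lower in 2, and the other form higher in 1 and lower in 7; in 5 pairs the liver form rose and the other fell. Methionine adenosyltransferase was one of the 5, with the liver form Mat1a at 11.49, 11.52 and 11.44 in monolayer and 12.90, 12.66 and 12.70 in sandwich (2.41-fold higher) and Mat2a at 8.21, 8.10 and 8.12 and 7.63, 7.85 and 7.37 (1.44-fold lower; -0.31 in log2 as the mean over its probe sets). The glucose carriers Slc2a2 of liver (0.38 ± 0.093) and Slc2a1 of red cells and growing tissue (-0.90 ± 0.11) were another, and the glycogen phosphorylases Pygl (0.67 ± 0.09) and Pygb (-0.63 ± 0.095) another. The glutathione transferases Gsta3 (1.95 ± 0.15) and Gstp1 (-0.37 ± 0.094) parted too. The fifth was no pair of sister forms: it set bile acid uptake by Slc10a1 (2.99 ± 0.17) against the basolateral exporter Abcc4 (-0.53 ± 0.15), whose call ended without monolayer replicate 1 or sandwich replicate 2 or 3 (the last at -0.33), in the 6-array fit and with array weights (-0.35). Among the other pairs were Krt18 and Krt19, Abcc2 and Abcc1, and the carboxykinases, where the mitochondrial Pck2 rose (0.40 ± 0.11) and lost its call without monolayer replicate 3 or sandwich replicate 1.

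**Figure D3:**
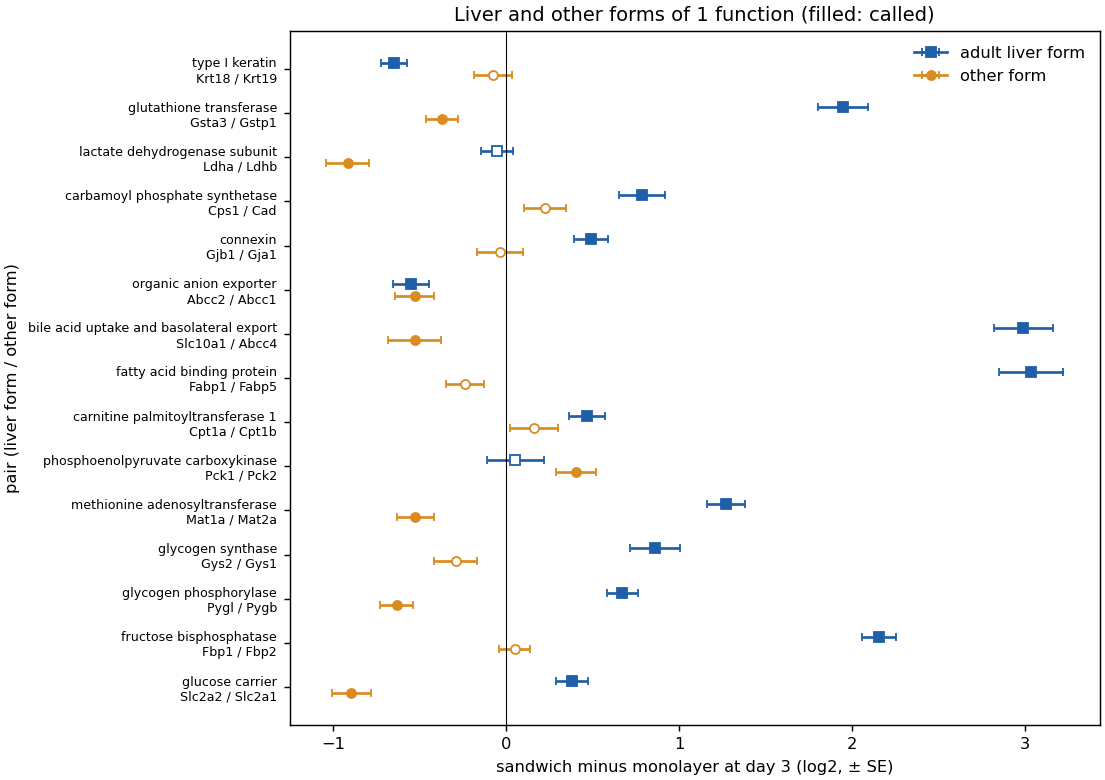
Log2 difference at day 3, sandwich minus monolayer, ± SE for both members of 15 pairs; blue squares are the adult liver form, orange circles its counterpart, filled where called. In 5 pairs (Gsta3 and Gstp1, Slc10a1 and Abcc4, Mat1a and Mat2a, Pygl and Pygb, Slc2a2 and Slc2a1) the blue mark is called to the right of 0 and the orange one to the left.

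Lipid synthesis rose almost throughout. Of 21 measured genes of cholesterol synthesis and its control, 20 were higher and 0 lower, the highest median of the lists described here (1.05). Tm7sf2, a sterol reductase, read 7.43, 7.63 and 7.70 in monolayer and 9.16, 9.35 and 9.09 in sandwich, 3.07-fold higher. Lanosterol synthase Lss was 2.81-fold higher, and Insig2, which restrains the sterol-sensing machinery, 2.02-fold higher. The sterol carrier Stard4 rose by 1.21 ± 0.092 (0.63 as the mean over its probe sets). For fatty acid synthesis and desaturation, 20 of 25 were higher and 1 lower (median 0.86). Acss2, which makes cytosolic acetyl-CoA from acetate, read 8.81 ± 0.043 in monolayer and 10.92 ± 0.15 in sandwich (SD, n = 3), 4.32-fold higher. Fatty acid synthase (Fasn) read 10.36, 10.57 and 10.50 and 12.67, 12.41 and 12.07, 3.75-fold higher, with sandwich replicate 1 the highest array. The elongase Elovl6 and the desaturase Fads2 were 2.90-fold and 2.23-fold higher.

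Genes of fat oxidation were higher in part, and most genes of fat storage did not pass the test. Among 30 genes of fat oxidation, 17 were higher and 0 lower (median 0.41). Fabp1, the fatty acid carrier of the liver cytosol, read 5.55, 5.40 and 4.96 in monolayer and 8.42, 8.48 and 8.11 in sandwich. The monolayer arrays all lay below the median of all values, so the difference of 3.03 ± 0.18 has no fold. Ehhadh, a peroxisomal oxidation enzyme, rose by 2.13 ± 0.15 and the thiolase Acaa2 2.56-fold. Cpt1a, the gate of fatty acids into mitochondria, was 1.38-fold higher, and Bbox1, the last enzyme of carnitine synthesis, 4.61-fold higher. Lipid droplet and lipase genes were higher in 6, lower in 0 and not past the test in 17 of 23; the 6 include both the triglyceride lipase Pnpla2 (0.63 ± 0.14) and its inhibitor G0s2 (1.90 ± 0.12).

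Bile acid genes and the carriers that take up bile acids and drugs rose. Slc10a1, the sodium-coupled bile acid carrier of the blood-facing membrane, read 6.68, 6.37 and 6.74 in monolayer and 9.64, 9.78 and 9.34 in sandwich, 7.94-fold higher (adjusted p = 2.25e-12). Abcb11, the pump that exports bile salts into the canaliculus, read 9.48, 9.54 and 9.59 against 10.81, 10.61 and 10.30, 2.05-fold higher. Of 18 genes of bile acid synthesis and conjugation, 12 were higher and 0 lower, with Slc27a5, which activates bile acids for conjugation, at 5.53, 5.27 and 5.88 and 7.61, 7.81 and 7.42 (2.05 ± 0.15). Cyp7a1, the rate-limiting enzyme of bile acid synthesis, was dim in both cultures, 4.18, 4.54 and 4.35 and 4.55, 4.25 and 4.52, with overlapping arrays. Uptake transporters were higher in 14 and lower in 1 of 25 (median 0.46). The organic anion carrier Slco2b1 and the prostaglandin carrier Slco2a1 were 2.67-fold and 2.53-fold higher, while Slc22a8, an organic anion carrier best known from kidney, was 2.04-fold lower (-0.54 in log2 as the mean over its probe sets). Export pumps were higher in 5 and lower in 5 of 23. Abcc2, the canalicular pump for conjugated bilirubin, read 11.21, 11.10 and 11.15 in monolayer and 10.78, 10.59 and 10.44 in sandwich and fell 1.46-fold, so the canalicular pumps Abcb11 and Abcc2 moved in opposite directions. The sterol exporter Abcg1 fell by this probe set (-1.09 ± 0.14; -0.47 as the mean over its probe sets).

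HNF1 factors bind many liver promoters through the core GTTAAT. The stretches before Fabp1, Slc10a1 and Sult2a2, which hold the largest rises, are shown with that core in capitals. They lie at chr4:104749151-104749300 on the plus strand, and at chr6:106357945-106358094 and chr1:85104533-85104682 on the minus strand of GRCr8, from RefSeq.
Fabp1: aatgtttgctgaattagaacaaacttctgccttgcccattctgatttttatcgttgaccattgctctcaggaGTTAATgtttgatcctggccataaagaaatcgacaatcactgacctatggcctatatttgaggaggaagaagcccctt
Slc10a1: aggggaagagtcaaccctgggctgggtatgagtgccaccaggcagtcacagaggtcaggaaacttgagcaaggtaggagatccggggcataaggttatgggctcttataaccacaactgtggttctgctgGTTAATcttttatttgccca
Sult2a2: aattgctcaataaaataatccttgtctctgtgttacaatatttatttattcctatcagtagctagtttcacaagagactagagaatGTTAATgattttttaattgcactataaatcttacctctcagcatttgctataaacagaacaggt
The core begins 117, 20 and 64 bases before the start. On either strand it was in the 250 bases before 4.32% of all genes, 13.2% of those at least 2-fold higher (22 of 167) and 7.04% of those at least 2-fold lower (15 of 213). Map2 and Lipc, which fell, are among the genes that hold it. As for the CArG box, the motifs were chosen after the values were seen. The HNF4 site CAAAGTCCA was in 0.333% of all, in 2.4% of the higher (4 of 167) and in 0 of the lower. For the AP-1 site TGANTCA the shares were 4.83%, 7.78% and 5.63%, and for CCAAT, the NF-Y site, 35.1%, 43.1% and 35.2%, in the same order. The sterol regulatory element was in 0.00855% of all windows, too few to compare the groups. A CArG box can contain CCAAT; none of the other motifs of the 8 searched contains another in full.

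Enzymes of drug and steroid metabolism were higher in part. Of 36 cytochromes P450, 18 were higher, 2 lower and 16 did not pass (median 0.35). Cyp3a23-3a1, an inducible steroid hydroxylase, read 8.70, 8.65 and 8.46 in monolayer and 11.06, 10.96 and 10.58 in sandwich, 4.79-fold higher. Its relative Cyp3a9 went the other way, 7.82, 7.92 and 8.02 against 6.22, 6.53 and 6.26, 3.00-fold lower. Cyp2d2 was 2.47-fold higher, Cyp17a1, a steroid hydroxylase, rose by 1.72 ± 0.17, and Cyp2c22 fell 1.32-fold. Cyp2e1, which oxidises ethanol, read 8.02, 8.40 and 8.24 and 8.57, 8.66 and 8.65 and did not pass (adjusted p = 0.156), but passed in the 6-array fit (adjusted p = 0.0306). Cytochromes, glucuronosyltransferases and sulfotransferases come in near-identical copies that a probe set may not tell apart.

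Conjugating enzymes showed the largest rise of all. Sult2a2, a sulfotransferase of steroids and bile acids, read 6.49, 6.25 and 5.80 in monolayer and 9.61, 9.37 and 8.74 in sandwich, with no overlap although replicate 3 was the lowest array in each culture. It was 8.33-fold higher (adjusted p = 3.10e-09), and its close relative Sult2a6 4.30-fold higher. Of 22 glucuronosyltransferases and sulfotransferases, 12 were higher and 1 lower; the one that fell was Papss1, which makes the sulfate donor (-0.72 ± 0.084). Glutathione transferases and antioxidant enzymes were higher in 16 and lower in 5 of 37. Gsta3 read 6.40, 6.54 and 6.29 against 8.22, 8.68 and 8.18, 3.86-fold higher, and catalase Cat was 2.37-fold higher, while the secreted peroxidase Gpx3 was 2.38-fold lower. Other phase I enzymes were higher in 13 and lower in 2 of 32, such as the epoxide hydrolase Ephx2 (0.93 ± 0.097) and the pyrimidine-degrading Dpys (1.24 ± 0.15).

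Genes of respiration, protein turnover, iron handling and stress differed from list to list. Oxidative phosphorylation subunits were higher in 23 and lower in 0 of 45, none past 0.68 (median 0.27), and the 23 became 15 when only the 6 arrays of day 3 were fitted. The complex I subunit Ndufv2 read 10.74, 10.74 and 10.63 in monolayer and 11.41, 11.39 and 11.36 in sandwich, 1.60-fold higher. Of 32 proteasome subunits, 31 did not pass and 1 was lower, Psmd8 (-0.29 ± 0.079), a call that ended without sandwich replicate 1 and in the 6-array fit; after quantile normalization, among other settings, 2 were lower. Iron and heme genes were higher in 11 and lower in 0 of 23, with Alas1, the first enzyme of heme synthesis in liver, 1.79-fold higher. Chaperones of the endoplasmic reticulum were higher in 9 and lower in 0 of 24, with the Hsp70 member Hspa5 1.65-fold higher. Cytosolic heat shock proteins were lower in 6 and higher in 2 of 18. The small heat shock protein Cryab read 11.33, 11.20 and 11.41 in monolayer and 9.61, 9.63 and 9.63 in sandwich, 3.23-fold lower, and the cochaperone Dnajb4 was 2.77-fold lower.

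**Figure D4:**
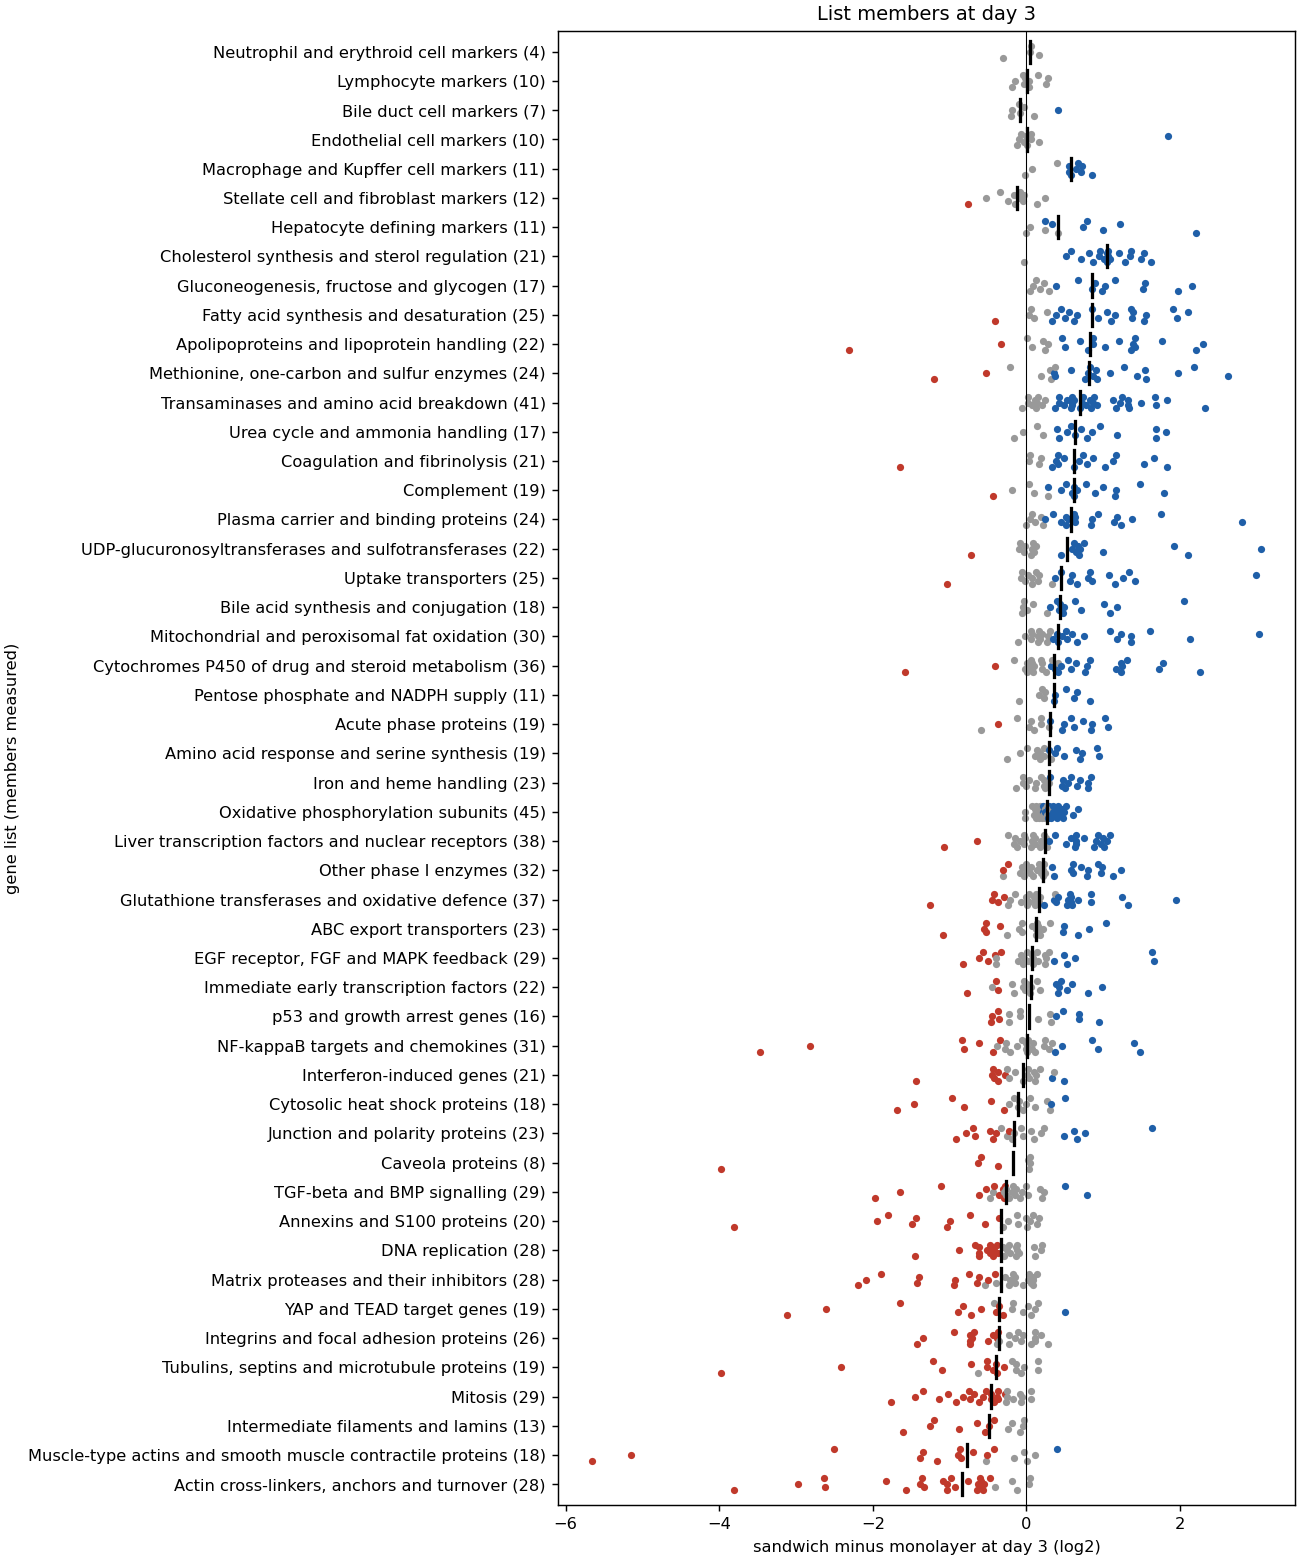
Log2 difference at day 3, sandwich minus monolayer, of every measured member of the gene lists with over 40% of members called and of the cell type lists, 1 point per gene (blue, called higher; red, called lower; grey, not called; black bar, list median), with the number of members measured in brackets. The medians run from -0.84 for actin cross-linkers to 1.05 for cholesterol synthesis, beside 0.008 over all genes.

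Markers of other cell types were read to see what else the wells held. Hepatocyte markers were present throughout, since none of 11 measured had a mean below the median of all values; 7 were higher in sandwich and 0 lower. Their summed level, the log2 of the sum of their linear values on an array, was 16.57, 16.58 and 16.60 in monolayer and 16.85, 16.85 and 16.81 in sandwich. Macrophage and Kupffer cell markers were higher in 8 and lower in 0 of 11 (median 0.58). Their summed level lay between 10.33 and 10.47 in monolayer and between 10.89 and 11.07 in sandwich, without overlap. C1qc, a complement chain made by macrophages, read 7.06, 6.95 and 6.95 and 7.79, 7.76 and 7.94 (0.85 ± 0.13), and the lysosomal marker Cd68 6.39, 6.29 and 6.36 and 7.10, 7.13 and 6.76 (0.65 ± 0.12). Cd163, Csf1r and Adgre1, which define these cells, had means below the median of all values. The part of macrophages in the complement, iron and chemokine genes was not tested.

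In each of the remaining lists of other cell types at most 1 member was called. Endothelial markers were called in 1 of 10, Fcgr2b, an antibody receptor (1.85 ± 0.18). The part of macrophages in its rise was not tested. Of the 10 endothelial markers, 8 were dim, Stab2, Flt1 and Pecam1 among them. The summed level of all 10 was 8.25, 8.35 and 8.38 in monolayer and 8.85, 8.77 and 8.83 in sandwich. The list median was 0.003 and 9 of the 10 did not pass, so most members did not share the rise of the sum. Stab2, which defines sinusoid walls, read 5.12, 5.27 and 5.47 and 5.29, 5.03 and 5.26, with overlap, beside the rises of Clec14a and S1pr1. Clec14a read 3.55, 3.29 and 3.45 in monolayer and 6.22, 6.03 and 4.99 in sandwich, where replicate 3 was the lowest, and S1pr1 5.30, 5.21 and 5.58 and 7.55, 7.97 and 7.43 (2.29 ± 0.14; 1.16 as the mean over its probe sets). Stellate cell and fibroblast markers were lower in 1 and higher in 0 of 12 (median -0.12). The one that fell was Reln, a matrix glycoprotein (-0.76 ± 0.12), and the count was 3 in the 6-array fit. Their summed level was 9.48, 9.53 and 9.42 in monolayer and 9.20, 9.09 and 9.17 in sandwich, and 8 of the 12, Col1a1, Dcn and Pdgfra among them, were dim. The part of stellate cells in the contractile and matrix genes was not tested. Bile duct markers were called in 1 of 7, Epcam (0.41 ± 0.13), a call that ended without any of 4 arrays and in the 6-array fit. Lymphocyte markers were called in 0 of 10 (1 without monolayer or sandwich replicate 2 and with array weights, Nkg7, 0.25 ± 0.099 in the full set), and neutrophil and erythroid markers in 0 of 4.

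The culture difference at day 3 was then set against that of the other days, by testing the difference of the differences. From day 2 to day 3 it changed in 268 genes (1.89%), in 160 toward sandwich (1.13%) and in 108 toward monolayer (0.76%), or in 386 probe sets (1.24%). Fabp1 showed how such a change came about. It stood at 8.26 ± 0.13 in monolayer and 8.94 ± 0.14 in sandwich at day 1 and at 6.94 ± 0.55 and 8.18 ± 0.15 at day 2 (SD, n = 3), and at 5.30 ± 0.31 and 8.34 ± 0.20 at day 3. The monolayer came down at each step, and from day 2 to day 3 the difference grew by 1.79 ± 0.26 (adjusted p = 3.64e-04). Apoa2 did likewise, with 9.42 ± 0.30 and 9.86 ± 0.08 at day 2 and 8.09 ± 0.088 and 10.29 ± 0.15 at day 3. Acta1 moved in the monolayer, from 9.44 ± 0.21 at day 2 to 11.76 ± 0.21 at day 3, while the sandwich read 5.82 ± 0.37 and 6.10 ± 1.02. Map2 was dim in both cultures at day 2, 3.79 ± 0.31 and 3.22 ± 0.18, and its difference changed by -3.41 ± 0.29 (adjusted p = 5.01e-07). Cd24 and Anxa1 changed by -2.59 ± 0.30 and -2.51 ± 0.23.

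From day 1 to day 3 the culture difference changed in 1543 genes (10.9%), 915 toward sandwich (6.44%) and 628 toward monolayer (4.42%), or in 2269 probe sets (7.31%). In 19 genes it was called in opposite directions at the 2 days. Ugt2b1, a glucuronosyltransferase, was lower in sandwich at day 1 (-0.58 ± 0.12) and higher at day 3, where it read 7.28, 7.46 and 7.25 in monolayer and 9.28, 9.45 and 9.02 in sandwich (1.92 ± 0.12). Hspb1, a small heat shock protein that caps actin filaments, was higher in sandwich at day 1 (1.42 ± 0.12) and lower at day 3 (-0.81 ± 0.12). The kynurenine pathway enzyme Acmsd went from -0.50 ± 0.12 to 0.86 ± 0.12, and Txnip, which binds thioredoxin, from 0.67 ± 0.093 to -0.70 ± 0.093. Cps1 read at day 1 10.58 ± 0.059 and 10.42 ± 0.17; within monolayer it changed by 0.91 ± 0.13 up to day 3 and within sandwich by 1.85 ± 0.13.

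**Figure D5:**
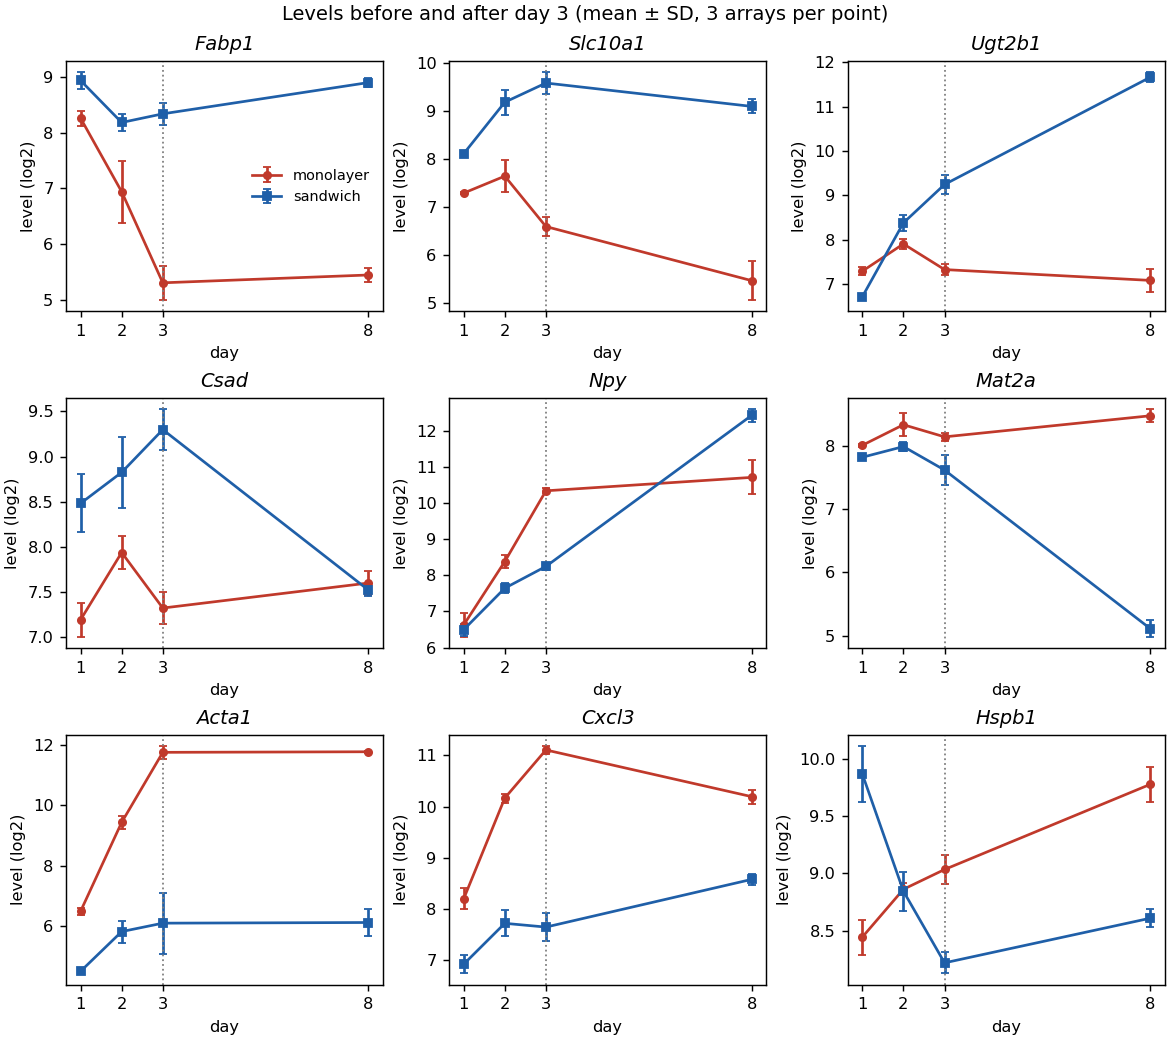
Mean log2 level ± SD (3 arrays per point) of 9 genes in monolayer (red circles) and sandwich (blue squares) against day of culture; the dotted line marks day 3. The sign of the culture difference turns after day 1 for Ugt2b1 and Hspb1 and between day 3 and day 8 for Npy, and the difference of Csad goes from 1.98 at day 3 to -0.079 at day 8.

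After day 3 the culture difference went on to change in 1253 genes (8.81%), 651 toward sandwich (4.58%) and 602 toward monolayer (4.23%), or in 1908 probe sets (6.15%); this contrast and the 2 above share the day 3 arrays. Npy, a neuropeptide, was 4.27-fold lower in sandwich at day 3, with 10.40, 10.27 and 10.36 in monolayer against 8.32, 8.14 and 8.28, and higher by 1.72 ± 0.17 at day 8. Mat2a, -0.52 ± 0.10 at day 3, stood at -3.37 ± 0.10 at day 8. Csad had a difference of 1.98 ± 0.17 at day 3 and -0.079 ± 0.17 at day 8. Cyp17a1 went from 1.72 ± 0.17 to 4.34 ± 0.17, and the lipoprotein gene Apoa4, 1.38-fold higher at day 3, to 3.03 ± 0.12. Cyp8b1, the sterol hydroxylase that sets the kind of bile acid, went from 0.44 ± 0.12, a call that ended without sandwich replicate 3, to 2.94 ± 0.12.

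Of 4525 genes with several probe sets, 566 had at least 2 called. In 6 of these, 1 probe set was called higher and another lower: Homer1, Synj2bp, Nmt2, Fgfr1op2, Ap3s1 and Mtx1. For these genes no direction is given. Among 9780 probe sets without a symbol, 804 were called (8.22%).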

How the data were processed

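The deposited table holds log2 values for 31099 Affymetrix probe sets on 24 arrays. RMA and limma are named in the submitters' processing notes, without versions or settings, so the background and normalization steps behind the authors' log2 values are not given in the sources used here. RMA forces arrays onto a common distribution, which hides a global shift in RNA per cell. Here 57 control probe sets were left out and limma 3.58.1 in R 4.3.3 was fitted on the values as deposited, with 1 mean for each of the 8 groups and Benjamini-Hochberg adjustment over 31042 probe sets. Contrasts were sandwich minus monolayer at day 3, and the change of that difference from day 1 or day 2 to day 3 and from day 3 to day 8. The fit was tested on simulated data with known changes and independent noise. This does not show how the calls behave where arrays or probe sets share noise.

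Of the probe sets, 20826 carried 1 gene symbol in the platform annotation, 436 several and 9780 none; 14217 genes were read, each by its probe set with the highest mean. Depth does not apply; 3 arrays per group limit the precision. Genes named are the 20 largest differences each way without overlap, the 4 members of each of 58 lists with the smallest adjusted p and those against their list, a set of liver and marker genes, isozyme pairs, and the largest changes between days; the members and lists were chosen with earlier results of these data known. Promoter sequences are from RefSeq on GRCr8, matched by gene identifier for 11700 genes. The 15 alternatives covered the arrays fitted, blocks, normalization, weights, filters, probe set choice and each day 3 array left out.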

Additional observations from a re-analysis of the deposited data

Results flagged for a closer look

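These genes stand out because the culture difference itself, sandwich minus monolayer in log2, was not the same on 2 days, by the limma contrast of differences with Benjamini-Hochberg adjustment over all probe sets. Those between days 2 and 3 and between days 3 and 8 are the 5 largest changes each way among genes called at day 3, and those between days 1 and 3 were taken for opposite calls on these days. Their size is therefore not independent of how they were chosen, and the contrasts share the day 3 arrays.

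From day 2 to day 3 the difference moved toward monolayer in Map2, a microtubule protein, at -3.41 (SE 0.29, adjusted p = 5.01e-07) and Cd24, a surface glycoprotein, at -2.59 (SE 0.30, adjusted p = 3.20e-05). It moved the same way in Anxa1, annexin A1, at -2.51 (SE 0.23, adjusted p = 7.68e-07) and Plscr2, a phospholipid scramblase, at -2.11 (SE 0.40, adjusted p = 0.00491), and in Acta1, skeletal actin, at -2.04 (SE 0.42, adjusted p = 0.00952). It moved toward sandwich in Cyp3a23-3a1, a steroid hydroxylase, at 1.67 (SE 0.22, adjusted p = 1.38e-04) and Apoa2, an apolipoprotein, at 1.77 (SE 0.22, adjusted p = 7.45e-05). The others in that direction were Fabp1, the liver fatty acid carrier, at 1.79 (SE 0.26, adjusted p = 3.64e-04) and Rbp7, a retinoid-binding protein, at 1.95 (SE 0.34, adjusted p = 0.00255), and Clec14a, a lectin, at 1.99 (SE 0.35, adjusted p = 0.00216).

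From day 3 to day 8 the difference moved toward monolayer in Mat2a, the non-liver methionine adenosyltransferase, at -2.84 (SE 0.15, adjusted p = 5.90e-12) and Pamr1, a secreted protein, at -2.54 (SE 0.13, adjusted p = 4.63e-12). Next came Mmp2, gelatinase A, at -2.49 (SE 0.20, adjusted p = 1.13e-08) and Ucp2, a mitochondrial carrier, at -2.16 (SE 0.18, adjusted p = 1.48e-08), with Csad, a taurine enzyme, at -2.06 (SE 0.24, adjusted p = 2.62e-06). The day 3 call of Mmp2 ended as the mean over its probe sets, after quantile normalization and without any 1 of monolayer replicates 1 and 3 and the sandwich replicates. That of Ucp2 ended without monolayer replicate 1 or sandwich replicate 2. The move was toward sandwich in Cyp8b1, a bile acid hydroxylase, at 2.50 (SE 0.17, adjusted p = 7.31e-10) and Apoa4, an apolipoprotein, at 2.57 (SE 0.16, adjusted p = 2.62e-10). Larger moves were those of Cyp17a1, a steroid hydroxylase, at 2.62 (SE 0.24, adjusted p = 6.49e-08) and Ugt2b1, a glucuronosyltransferase, at 2.66 (SE 0.17, adjusted p = 3.01e-10), and of Npy, a neuropeptide, at 3.81 (SE 0.24, adjusted p = 2.62e-10).

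The remaining 8 genes had calls in opposite directions at day 1 and day 3. Lower in sandwich at day 1 and higher at day 3 were Ugt2b1, a glucuronosyltransferase, at 2.50 (SE 0.17, adjusted p = 9.19e-10) and Tsx at 1.92 (SE 0.22, adjusted p = 1.67e-06), and Acmsd, a kynurenine pathway enzyme, at 1.36 (SE 0.17, adjusted p = 7.90e-06) and Ripk2, a kinase of innate immunity, at 1.24 (SE 0.19, adjusted p = 8.64e-05), these values being the day 3 difference minus the day 1 difference. Higher at day 1 and lower at day 3 were Hspb1, a small heat shock protein, at -2.24 (SE 0.16, adjusted p = 2.12e-09) and Txnip, a thioredoxin-binding protein, at -1.37 (SE 0.13, adjusted p = 1.42e-07), and Pln, phospholamban, at -1.34 (SE 0.16, adjusted p = 4.03e-06) and Ampd3, an AMP deaminase, at -1.25 (SE 0.14, adjusted p = 9.30e-07). For Pln the day 3 difference was -0.60, or -0.25 as the mean over its probe sets. With groups of 3 arrays, no outlier test was made.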

How the results depend on the processing

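At day 3 the called probe sets numbered 5133, and between 4388 (only the 6 arrays of day 3) and 6289 (array interquartile range as a covariate) under the settings that kept all 6 arrays and the same threshold; with a single array left out they numbered 4059 to 4641. Genes called went from 3229 to between 2726 and 3891, and to 2576 to 2945 with 1 array left out. Asking also for a 2-fold difference left 727 probe sets and 479 genes, by construction. The change of the culture difference from day 2 to day 3 was called in 386 probe sets, in 601 with the replicate number as a block, in 601 with the interquartile range as covariate and in 1002 with array weights; the cause was not tested. Leaving out 1 array gave 271 to 433. The change from day 3 to day 8 (1908) gave 1488 to 1796 and that from day 1 (2269) 1738 to 2241 with 1 array left out.

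At day 3, deviations of same-numbered arrays from their group means correlated at 0.064, -0.263 and 0.127. Those of different-numbered arrays ran from -0.283 to 0.226. With 3 arrays per group, these values cannot show whether replicate numbers pair the cultures. With the replicate block, 5898 probe sets and 3631 genes were called at day 3; it called Acta2 (adjusted p = 0.0442) and 2 rather than 1 stellate markers.

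Many of the named genes were chosen for a large difference or a small adjusted p, so their counts do not stand for all called genes. Of 323 named genes, 289 were called, beside 22.7% of all genes. Under at least 1 of 15 settings 33 lost the call, 28 of them with 1 array left out, and 5 gained one. Averaging over probe sets turned 4, Ap3s1 to 0.0166, Fgfr1op2 to -0.1185, Mtx1 to -0.0132 and Synj2bp to -0.1135, which are 4 of the 6 genes with opposing probe sets. Of 58 list counts, 8 moved by over 1.5 times under some setting, 5 of them with 1 array left out. The median of all genes moved by no more than 0.0235 from 0 under any setting. Signal near background limits the genes given without a fold.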

Other observations

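Several of the largest falls belong to none of the gene groups described above. Carbonic anhydrase 3 (Car3), an enzyme of muscle, fat and liver, read 11.18, 10.85 and 11.25 in monolayer and 6.41, 6.45 and 7.19 in sandwich (-4.41 ± 0.17). Rgs2, which shortens signalling through G proteins, read 8.60, 8.56 and 8.54 against 5.45, 5.77 and 6.01 (-2.83 ± 0.16). Serpinb9, the inhibitor of the killer cell protease granzyme B, read 11.35, 11.26 and 11.53 and 7.92, 8.32 and 8.18 (-3.24 ± 0.14). Flrt3, a membrane protein that binds FGF receptors, read 8.55, 8.15 and 8.42 and 5.39, 5.85 and 5.53, and Filip1l, named for its likeness to a filamin-binding protein, 9.43, 9.17 and 9.45 and 6.03, 6.16 and 6.40. In all 5 the lowest monolayer array lay above the highest sandwich array, which the choice of the largest falls required. Bhlhe41, a repressor of the circadian clock, read 6.93, 6.80 and 7.08 and 4.13, 4.26 and 4.08 (-2.78 ± 0.15). Myoferlin (Myof), which reseals damaged membranes, read 8.44, 8.15 and 8.65 and 5.13, 5.15 and 5.40, and the scramblase Plscr2 7.37, 6.66 and 6.52 and 3.33, 3.19 and 3.25.

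Among the rises outside those groups was Rbp7, a retinoid-binding protein, at 6.48, 6.47 and 6.16 in monolayer and 8.91, 8.69 and 8.40 in sandwich (2.30 ± 0.24). Replicate 3 was the lowest array in each culture. Bbox1, the carnitine enzyme, read 6.36, 6.47 and 6.21 against 8.66, 8.62 and 8.38.

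Pamr1, a secreted protein known from muscle regeneration, read 4.30, 4.29 and 4.33 in monolayer and 3.52, 3.46 and 3.66 in sandwich at day 3, and its culture difference went from -0.76 ± 0.091 at day 3 to -3.30 ± 0.091 at day 8. Tsx went from -1.31 ± 0.15 at day 1 to 0.61 ± 0.15 at day 3, and the AMP deaminase Ampd3 from 0.37 ± 0.097 to -0.88 ± 0.097.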
